A study of Mus musculus with 10 samples.

Results

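Central rim cells, named for the hepatocyte layer around the central vein, were taken as the cells with 5 or more unique molecular identifiers (UMIs, tagged RNA molecules) of Glul, the gene of glutamine synthetase. Of 18378 cells in 10 libraries, 553 met this rule, which is 3.01%. The libraries held single hepatocytes of adult C57BL/6 males, 3 months old and fed chow without restriction. The cells were freed with collagenase, enriched on a Percoll gradient and sequenced with the 10x Chromium 3' kit, version 2. Samples were collected at zeitgeber times (ZT, hours after lights on by convention) 0, 6, 12 and 18, of which ZT0 and ZT12 have 3 libraries each and ZT6 and ZT18 have 2. All mice shared the anaesthetic (ketamine and xylazine) and no genotype or drug differed between the times. The number of mice behind a library is not stated in the labels, so p-values measure the spread between libraries. In the tests of counts below, a gene's spread is estimated partly from all genes. Very small p-values there thus do not rest on that gene's libraries alone.

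The liver lobule is a sheet of hepatocytes between portal vessels, where blood enters, and a central vein, where it leaves. Ammonia is first turned into urea by the urea cycle in most of the lobule, and what escapes is bound to glutamate by glutamine synthetase in a thin layer around the central vein. Wnt ligands from the vein's endothelium hold the pericentral programme in place through beta-catenin and TCF/LEF factors, and Glul, Slc1a2, Oat and Cyp2a5 are known members of it. Slc1a2 encodes a glutamate carrier and Oat encodes ornithine aminotransferase, which can yield glutamate. Cyp2a5 is a cytochrome P450 of xenobiotic metabolism.

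The genes whose transcripts mark the rim lie apart in the mouse genome (GRCm38, GENCODE M21 annotation). Glul spans chr1:153899944-153909723 on the plus strand, Slc1a2 spans chr2:102658659-102790784 on the plus strand, Oat spans chr7:132557478-132576398 on the minus strand, and Cyp2a5 spans chr7:26835305-26843548 on the plus strand. Their promoters are shown because the members were compared on letters bound by TCF/LEF factors, CTTTGAT and CTTTGAA, searched on both strands. Each runs from 250 bases before to 50 after the RefSeq start (build GRCm38.p6), 5' to 3' on the gene's strand, with capitals where either motif or its complement occurs. The windows are chr1:153899679-153899978 for Glul, chr2:102706188-102706487 for Slc1a2 and chr7:132576349-132576648 for Oat.
Glul: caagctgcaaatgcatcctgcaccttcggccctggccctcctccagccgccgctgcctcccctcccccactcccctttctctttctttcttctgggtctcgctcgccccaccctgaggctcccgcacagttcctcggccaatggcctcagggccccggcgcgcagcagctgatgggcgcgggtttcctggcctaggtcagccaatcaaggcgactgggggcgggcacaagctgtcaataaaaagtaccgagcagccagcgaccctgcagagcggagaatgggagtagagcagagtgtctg
Slc1a2: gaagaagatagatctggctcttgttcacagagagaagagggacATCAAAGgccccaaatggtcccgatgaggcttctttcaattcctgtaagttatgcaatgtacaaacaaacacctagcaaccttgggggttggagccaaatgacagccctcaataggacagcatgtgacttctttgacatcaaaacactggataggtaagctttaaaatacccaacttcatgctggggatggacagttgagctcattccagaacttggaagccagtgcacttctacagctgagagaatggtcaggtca
Oat: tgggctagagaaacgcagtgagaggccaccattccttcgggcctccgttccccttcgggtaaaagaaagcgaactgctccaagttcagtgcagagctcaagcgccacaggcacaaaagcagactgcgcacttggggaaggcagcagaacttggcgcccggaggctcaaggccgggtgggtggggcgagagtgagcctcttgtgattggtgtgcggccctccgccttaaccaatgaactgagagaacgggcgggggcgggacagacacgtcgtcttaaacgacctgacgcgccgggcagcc
The Slc1a2 window, which lies inside the GENCODE gene span, held 1 match, ATCAAAG, beginning 207 bases before the start. The Glul and Oat windows held neither motif, nor did those of Cyp2a5, Slc13a3, Cyp2c37, Gstm2 and Serpina7, while Gstm3 held TTCAAAG. Among all 32851 promoters of the table, 8.65% held a match. The share was 6.26% of 6394 promoters of the genes tested below, 8.06% of 360 of the genes higher in the rim and 7.24% of 525 of those lower. It was 11.03% of 145 promoters of genes higher in the rim than in other pericentral cells, where 107 of 137 genes matched the table, and 6.77% of 251 of those lower. A match is only a match of letters.

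The rule caught a group with the markers of its label. No rim cell lacked all of Slc1a2, Oat and Cyp2a5; 1 lacked Oat, 70 lacked Slc1a2 and 101 lacked Cyp2a5. Position was measured with a score that did not use Glul or Oat, built from 8 periportal and 7 pericentral landmark genes. Ranked by it, the cells of each library were split into 3 equal zones, of which the pericentral zone held 543 rim cells, the middle zone 10 and the portal zone 0. The most pericentral 10% of cells, called the innermost zone here, held 427 of them (77.2%). The portal zone, where glutamine synthetase is not known to be made, gives the background: 542 of its 6130 cells (8.84%) had a Glul UMI, and none had more than 4.

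Rim cells held 10811 of 14216 Glul UMIs (76.0%), with a median of 16 and a highest count of 109 per cell. These values chose the cells and are a description. Cells with 0 Glul UMIs numbered 15136, those with 1 to 2 numbered 2534, those with 3 to 4 numbered 155, and within the rim 129 cells had 5 to 9, 227 had 10 to 19 and 197 had 20 or more. Just outside the rule, the 155 cells with 3 to 4 Glul UMIs had 317 CPM of Slc1a2 (UMI counts scaled to a common total, as CPM, with Glul left out), and just inside it the 56 cells with 5 to 6 had 606. Oat was 2036 CPM outside and 3720 CPM inside, and Cyp2a5 was 668 and 948 CPM. Cps1, the first enzyme of the urea cycle, was 1223 CPM outside and 355 CPM inside. The cells just under the rule thus lay between the rim and the rest on these 4 genes.

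**Figure D1:**
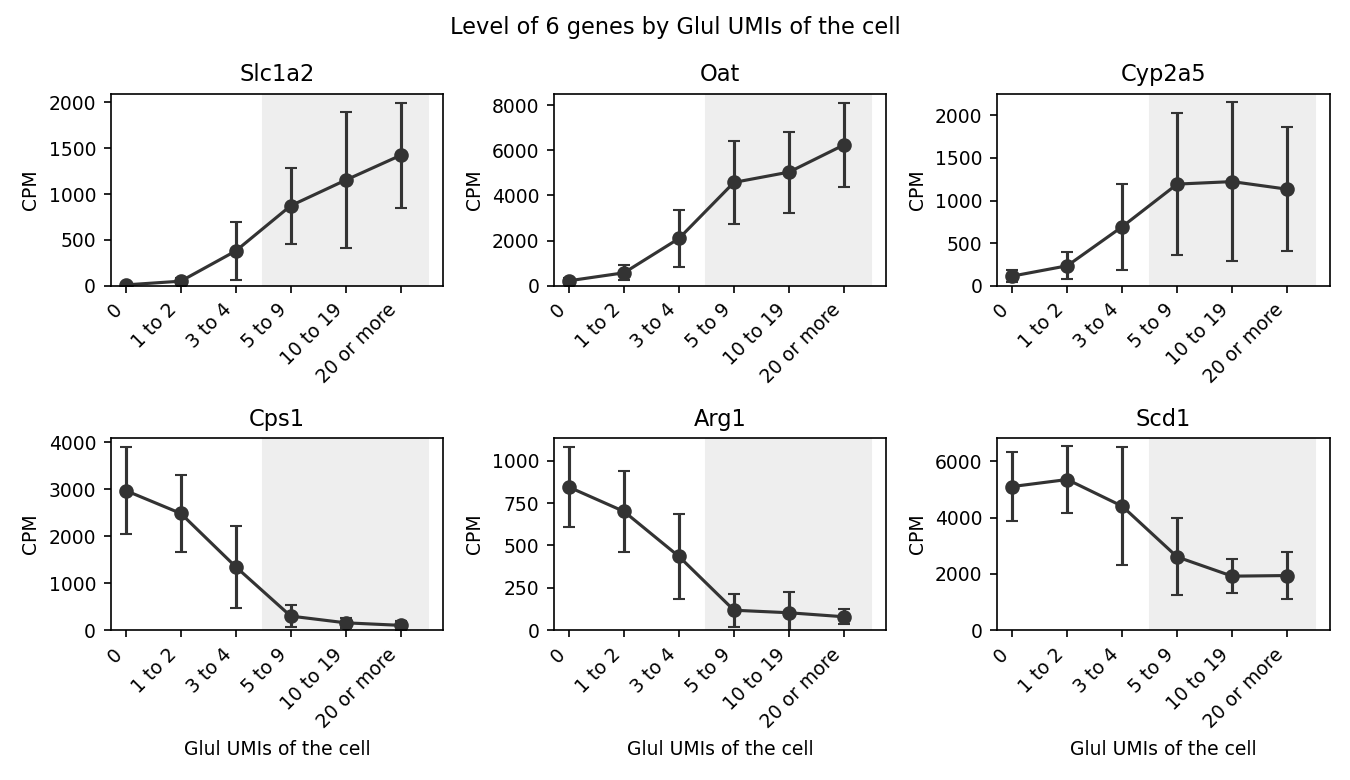
Level of 6 genes (y axis, CPM with Glul left out) in cells grouped by their Glul UMIs (x axis), as mean and SD over the 8 to 10 libraries with at least 5 cells in the class; grey marks the rim. Slc1a2 climbs from 8.20 CPM at 0 Glul UMIs to 1422 CPM at 20 or more, while Cps1 goes from 2972 to 104 CPM.

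Within the rim, the means of Slc1a2 and Rhbg were higher in the classes with more Glul, and that of Cyp2a5 was not. Slc1a2 was 872 ± 416 CPM (SD, n = 10 libraries) in cells with 5 to 9 Glul UMIs, 1152 ± 739 (n = 9) at 10 to 19 and 1422 ± 575 (n = 8) at 20 or more. Rhbg, an ammonium channel, was 84.2 ± 43.1, 107 ± 71.8 and 175 ± 61.5 CPM over the same classes. Cyp2a5 stayed between 1133 and 1222 CPM. Cps1 was 301 ± 234 CPM in the lowest rim class and 104 ± 92.5 CPM in the highest. The SDs of neighbouring classes overlap for each of these genes.

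The share of rim cells was uneven between libraries, and 2 libraries carried most of the cells. ZT0C had 149 rim cells of 1795 (8.30%, exact 95% interval 7.07 to 9.67%, covering counting error only) and ZT12C had 132 of 1139 (11.6%, 9.79 to 13.6%). Together they held 281 rim cells (50.8%), and both carry the same digit, 5, in the 10x index of their labels. The other libraries had 5 to 71 rim cells. ZT18B had 5 of 1787 (0.280%) and was left out of the tests below by a minimum of 10 cells, so ZT18 rests on the 19 rim cells of ZT18A. By time, the share was 3.62 ± 4.05% (SD, n = 3) at ZT0. It was 2.20 ± 0.425% (n = 2) at ZT6 and 6.37 ± 4.61% (n = 3) at ZT12, and ZT18 had 0.706 ± 0.603% (n = 2). The ranges of ZT0 and ZT12 overlap: ZT0A and ZT0B had 1.49% and 1.08%, and ZT12A and ZT12B had 4.65% and 2.88%. No test was made, since the rule used these counts, and time cannot be told apart from how the cells of each library were recovered.

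**Figure D2:**
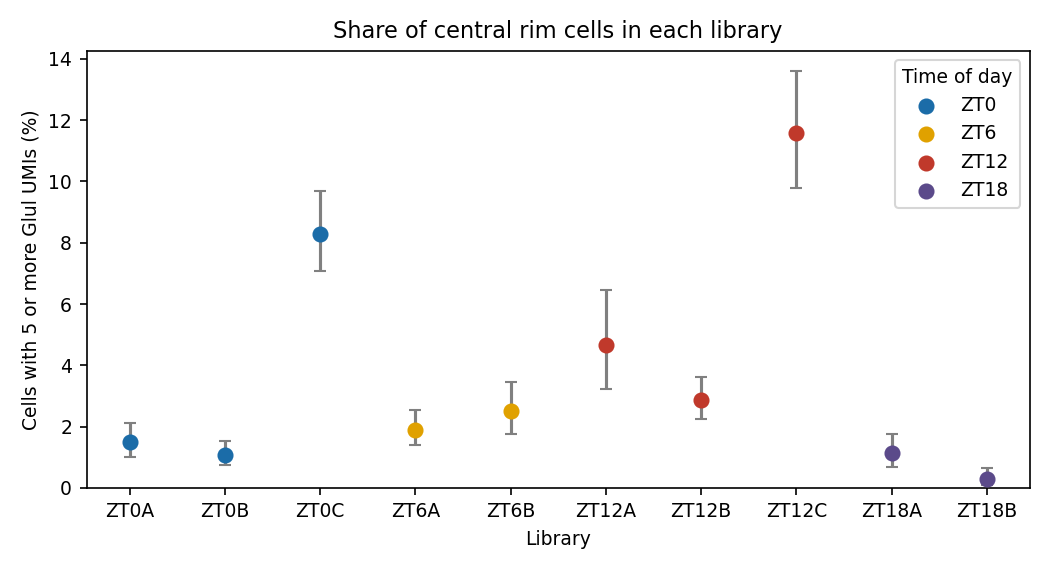
Percent of cells with 5 or more Glul UMIs (y axis) in each of 10 libraries (x axis), coloured by time of day, with exact 95% binomial intervals. ZT0C (8.30%) and ZT12C (11.6%) stand above the other libraries, which lie between 0.280% and 4.65%.

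Libraries held 1454623 to 7144803 UMIs and cells 1048 to 10001. The median rim cell had 2081 ± 806 UMIs against 2007 ± 392.1 in the other cells (SD, n = 10 libraries), higher in 4 of 10 libraries (2-sided exact sign-flip permutation p = 0.648). Mitochondrially encoded genes took 14.2 ± 2.20% of rim UMIs against 17.98 ± 3.23% elsewhere, lower in 10 of 10 libraries (exact sign-flip permutation p = 0.00195, the smallest that 10 pairs allow).

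To see what sets the rim apart, UMIs were summed over rim cells and over all other cells of each of the 9 libraries with enough rim cells, and the sums were compared within library with edgeR's quasi-likelihood test (Benjamini-Hochberg adjusted p under 0.05). Rim cells had more transcripts of glutamate, ammonium and carboxylate carriers and of pericentral P450 and glutathione transferase genes, and fewer of urea cycle, portal amino acid and plasma protein genes. The test called 943 of 6383 genes (14.8%), of which 362 (5.67%) were higher and 581 (9.1%) lower in the rim. List counts against all other cells are to be read beside these shares. At least 2-fold differences numbered 130 up and 189 down, and at least 4-fold ones 41 and 55. The split depends on scaling: with totals scaled by library size alone in place of TMM, the higher share was 67.5% of 1136 calls against 38.4% here, and with DESeq2 47.1% of 713. The median log2 difference of all genes was -0.05 with TMM and 0.13 with library size alone, so differences near 0.2 on the log2 scale depend on this choice.

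Among genes averaging at least 50 CPM, Slc1a2, Rhbg and Oat had the largest increases. Slc1a2 ranged from 600.07 through a median of 1169 to 2308 CPM over the 9 rim sums, against 4.98, 13.8 and 45.01 CPM in the other cells. Every rim library was far above every other-cell library. The log2 difference was 5.74 ± 0.12 (SE), higher in 9 of 9 libraries, with an adjusted p too small for the software to store. Rhbg was 67.7, 135 and 212 CPM in the rim against 1.44, 2.78 and 5.79 CPM elsewhere, a log2 difference of 5.16 ± 0.23 (edgeR adjusted p = 1.08e-109). Slc13a3, a sodium-coupled dicarboxylate carrier, was 32.3, 79.9 and 136 CPM in the rim and 0.635, 1.44 and 4.67 CPM elsewhere, a log2 difference of 5.04 ± 0.28 (edgeR adjusted p = 1.79e-67). Oat was 3610.1, 4649.9 and 8353 CPM against 138, 209 and 615 CPM, a log2 difference of 4.02 ± 0.10. None of these ranges overlap.

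The other 7 of the largest increases were chosen among called genes averaging at least 50 CPM and higher in 9 of 9 libraries. They were Lhpp (log2 3.14), the P450 gene Cyp2c37 (3.03), Serpina7, which encodes thyroxine-binding globulin (3.03), Lpl, which encodes lipoprotein lipase (3.0), the glutathione transferases Gstm2 (2.90) and Gstm3 (2.44), and Cyp2a5 (2.87). Over all genes tested, 3.93% were above the comparison in every library. Cyp2a5, Cyp2c37, Gstm2 and Gstm3 have close paralogs, and how reads that fit several were counted is not given in the sources used here.

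**Figure D3:**
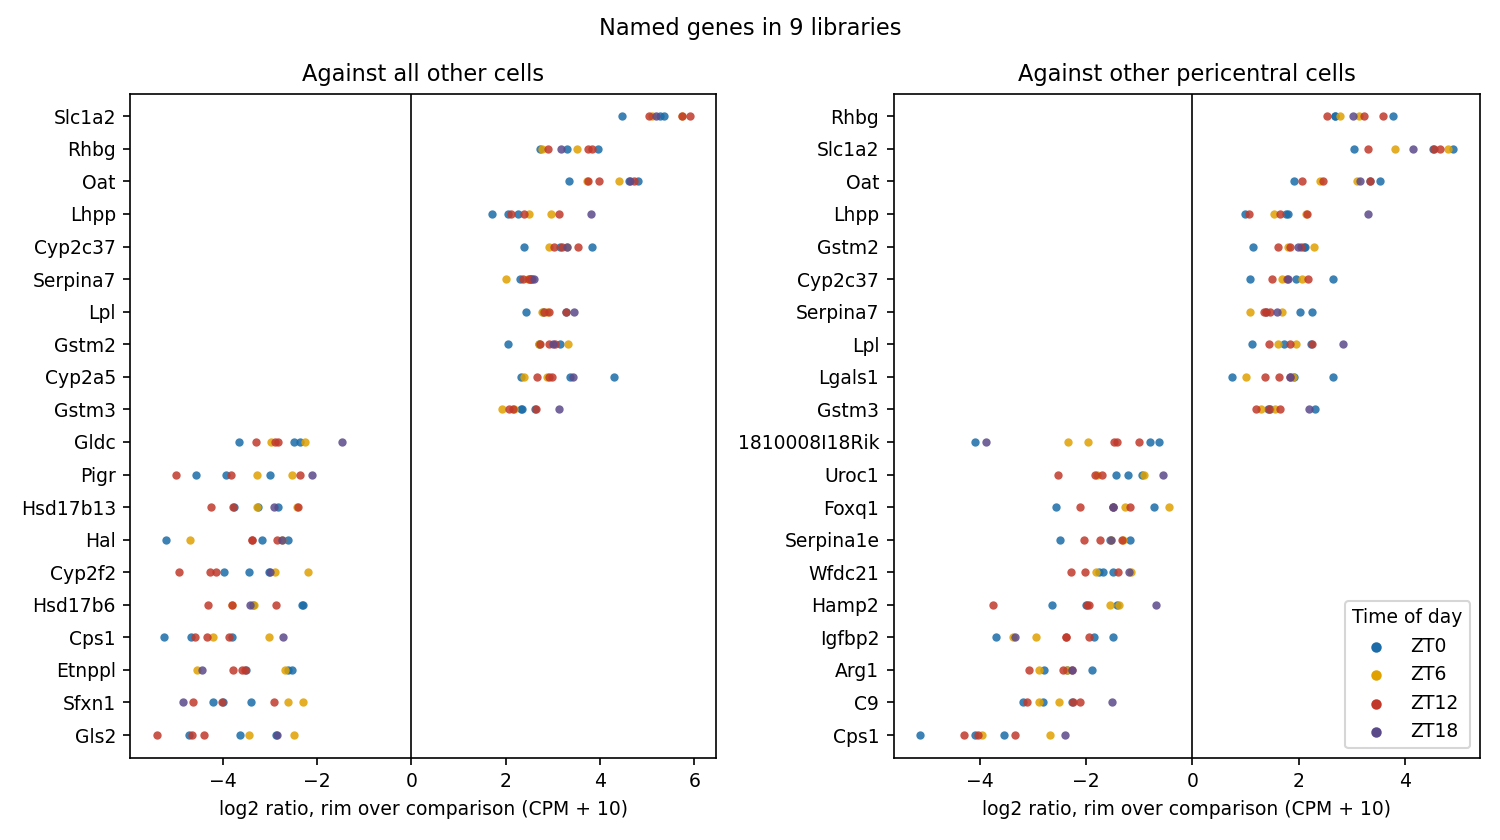
log2 ratio of the rim to the comparison cells (x axis, from CPM + 10) for the 10 genes with the largest difference in each direction (y axis), 1 point per library coloured by time of day. By the choice of genes, all points of a gene lie on 1 side of 0, against all other cells (left) and against other pericentral cells (right).

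The list of glutamine, glutamate, proline and ammonia genes split in 2 directions. Of 17 members tested, 6 were higher and 7 lower in the rim, with a median log2 difference of -0.02 beside -0.05 for all genes. Besides the carriers and Oat, Prodh and Aldh4a1, which turn proline into glutamate, were higher, by 1.14 ± 0.13 and 0.36 ± 0.12. Lower were Gls2, the liver glutaminase (-5.37 ± 0.27), Got1, the cytosolic aspartate aminotransferase (-1.78 ± 0.17), the cationic amino acid carrier Slc7a2 (-1.78 ± 0.15), and the neutral amino acid carriers Slc38a2 (-0.60 ± 0.15), Slc38a3 (-1.04 ± 0.12) and Slc38a4 (-1.14 ± 0.12). Gls2 was 0.0, 7.08 and 32.3 CPM (lowest, median, highest) in the rim and 134, 222 and 411 CPM elsewhere, from 9 rim UMIs in all, which makes the size of its fold uncertain. With library size alone, 7 members were higher and 6 lower.

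The urea cycle was lower in the rim at 6 of 8 members, 0 were higher, and the median log2 difference was -1.34. Cps1 was 67.7, 168 and 388 CPM in the rim against 1801, 2739 and 4390.5 CPM in other cells, and no rim library came near the lowest of the others. Its log2 difference was -4.42 ± 0.13 (edgeR adjusted p = 5.56e-234). Arg1, which releases urea, was 45.1, 94.4 and 226 CPM against 525, 782 and 1233 CPM (log2 -3.22 ± 0.14, edgeR adjusted p = 7.85e-111). Ass1 (-2.63), Asl (-1.52) and Otc (-1.16), the middle enzymes, and the ornithine carrier Slc25a15 (-0.43) were lower too. Nags (0.05 ± 0.22) and Slc25a13 (-0.12 ± 0.12) did not pass. With library size alone 5 members were lower.

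**Figure D4:**
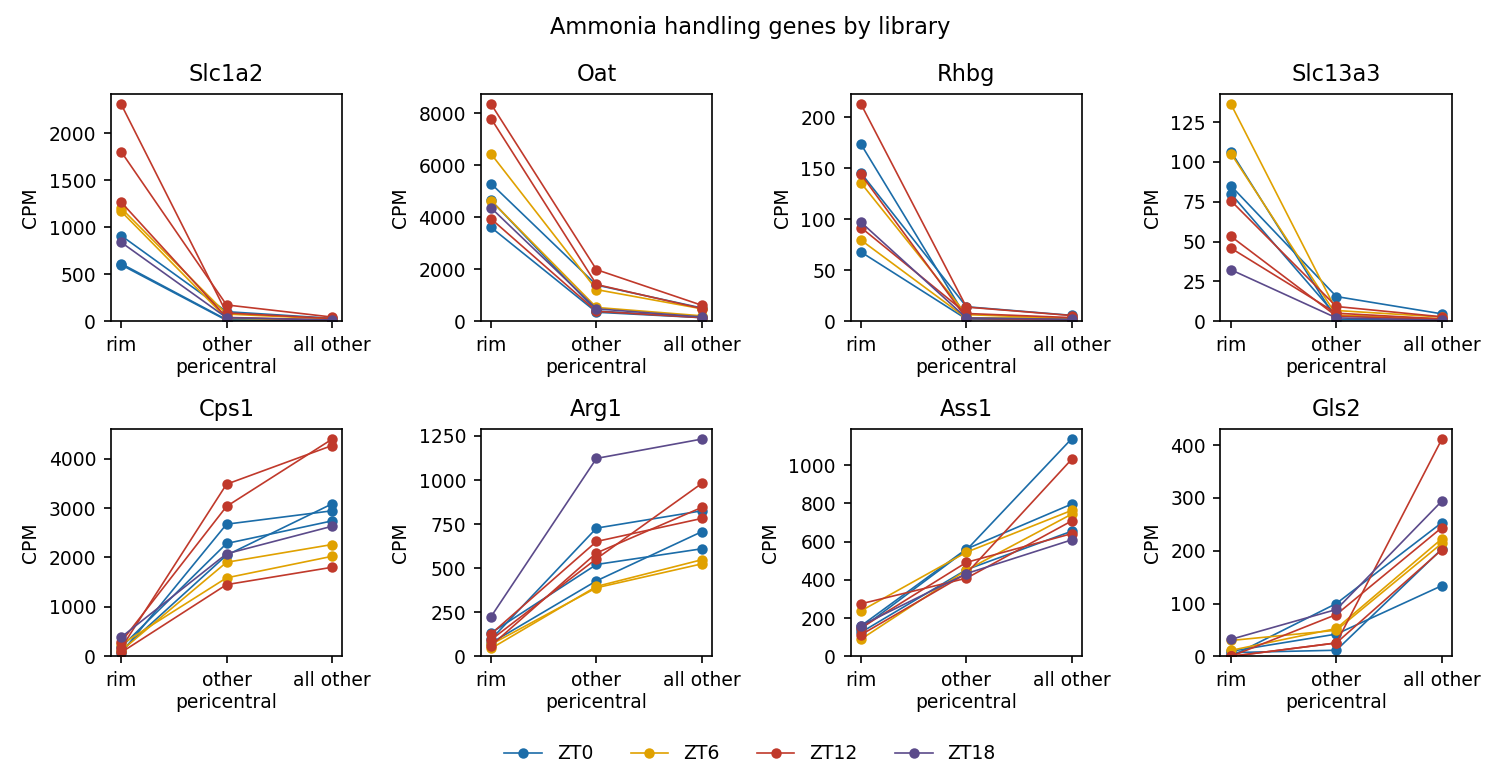
CPM (y axis, Glul left out) of 4 genes high in the rim (top) and 4 genes low in it (bottom) in rim, other pericentral and all other cells (x axis); each line is 1 of 9 libraries, coloured by time of day. Slc1a2 lies between 600.07 and 2308 CPM in the rim and at or under 174 CPM in other pericentral cells; Cps1 is at or under 388 CPM in the rim and at or above 1451 CPM in other pericentral cells.

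Amino acid breakdown of the portal side went the same way: 10 of 12 members tested were lower and 1 higher, with a median of -1.77. Hal, which opens histidine breakdown, was lower by 4.02 on the log2 scale (-4.02 ± 0.22), and Uroc1, Amdhd1 and Ftcd, the next enzymes of that path, were at -2.88, -2.78 and -2.27. Gldc of glycine cleavage was at -3.56, and Sds, Agxt, Tat, Cth and Tdo2 at -2.37, -1.27, -1.12, -0.68 and -0.52. Hpd, of tyrosine breakdown, was higher at 0.58 ± 0.10. The remaining large decreases of the comparison were Sfxn1, a mitochondrial serine carrier (-4.87), Etnppl (-4.85), Hsd17b6 (-4.30), Cyp2f2 (-4.13), Hsd17b13 of lipid droplets (-3.66) and Pigr, the receptor that carries immunoglobulin A (-3.61). They and Gls2, Cps1, Hal and Gldc were chosen among genes lower in 9 of 9 libraries, a condition that 3.68% of all genes tested met. Sfxn1, Etnppl and Hsd17b6 had 9 to 10 rim UMIs in all.

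Many of these differences belong to the whole pericentral side, so the rim was also set against the other cells of the pericentral zone of each library (5578 cells in all). The same rim sums enter both comparisons. Carriers and Oat stayed far apart, and Cps1 and Arg1 did too, whereas Sds (0.04 ± 0.30), Cyp2a12 (-0.33 ± 0.13) and Por (0.27 ± 0.11) did not pass. The 15 landmarks define that zone and were left out of its counts, which leaves 425 calls among 6375 genes (6.67%), with 137 higher (2.15%) and 288 lower (4.52%). Library size alone gave 398 calls, with 59.5% of them higher against 32.2% here. DESeq2 gave 272 calls. Against the innermost zone (1412 cells that are not rim cells), a setting chosen after the data had been seen, 121 of 6373 genes passed. Of these 39 were higher and 119 were among the 425. The list counts below against either zone are to be read beside these counts over all genes. Sums of the innermost zone rest on few cells in some libraries. In ZT12C, for example, 81 cells of the most pericentral 10% of 1139 were rim cells and left the comparison. Whether calls were lost there through fewer cells or smaller differences was not tested.

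Rhbg and Slc1a2 had the largest increases over other pericentral cells. Rhbg was 2.19, 3.47 and 14.2 CPM in other pericentral cells, below all rim libraries (log2 4.24 ± 0.23, edgeR adjusted p = 8.52e-71). Slc1a2 was 10.4, 41.0 and 174 CPM there (log2 4.20 ± 0.11). Oat was 348, 532 and 1986 CPM (log2 2.64 ± 0.09), and Slc13a3 1.09, 3.90 and 15.5 CPM (log2 3.57 ± 0.28). The ranges of all 4 lie under those of the rim. Next came Lhpp (1.89), Gstm2 (1.77), Cyp2c37 (1.68), Serpina7 (1.66), Lpl (1.65), Lgals1, which encodes galectin-1 (1.62), and Gstm3 (1.56). Being higher in 9 of 9 libraries was a condition for naming these genes, which 1.82% of all genes met. Cyp2a5, the remaining label marker, was 100.17, 350 and 1207 CPM in other pericentral cells against 546, 842 and 3098 CPM in the rim, so its ranges overlap across libraries, although it was higher within 9 of 9 (1.55 ± 0.09). Slc1a4, a neutral amino acid carrier tested only here, was higher at 1.73 ± 0.46 in 7 of 9 libraries (edgeR adjusted p = 0.00446). Of 18 tested glutamine and ammonia genes, 6 were higher and 5 lower, and against the innermost zone 5 and 2.

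Cps1 was 1451, 2075 and 3482 CPM in other pericentral cells, and even the lowest was above the highest rim library, at 388 CPM. The log2 difference was -3.96 ± 0.12 (edgeR adjusted p = 1.08e-223), close to that against all other cells. Arg1 was at -2.66 ± 0.13 and Otc at -0.92 ± 0.12, so 3 of the 6 urea cycle genes that are not landmarks were lower and 0 higher, also against the innermost zone. The other large decreases were C9, a complement component (-2.85), Igfbp2, which binds insulin-like growth factors (-2.65), Hamp2 of the hepcidin family (-2.26), Wfdc21 (-1.83), Serpina1e, an alpha-1-antitrypsin (-1.77), the transcription factor Foxq1 (-1.76), Uroc1 (-1.71) and 1810008I18Rik. All were chosen among genes lower in 9 of 9 libraries, a condition that 1.68% of all genes met. Foxq1 lost its call against the innermost zone (-0.94, edgeR adjusted p = 0.0953). With comparison cells matched on UMI total, all 10 decreases kept their call.

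The Wnt list holds components and feedback genes of the pathway. Of 13 members tested against all other cells, 5 were higher, 2 were lower, and the median was 0.17. The counts depend on the filter on low levels, with 8 higher at 3 CPM and 0 at 50 CPM. Lgr5, a receptor that amplifies Wnt signals, was 5.32, 29.0 and 46.0 CPM in the rim and 0.621, 1.19 and 6.72 CPM elsewhere (log2 3.0 ± 0.38, higher in 9 of 9, edgeR adjusted p = 1.45e-13). Its counts are low, at 43 rim UMIs. Tbx3, a target gene and repressor, was at 2.48 ± 0.23, and the ligases that remove Wnt receptors, Rnf43 and Znrf3, were at 1.53 ± 0.30 and 1.44 ± 0.39. Notum, a secreted Wnt inhibitor, was at 0.99 ± 0.34. Ctnnb1, beta-catenin itself, was 0.07 ± 0.14 and did not pass. Axin2, the usual readout, was under the filter, with 29 rim UMIs, a rim mean of 9.90 ± 13.0 CPM and 2.54 ± 2.45 CPM elsewhere. Nkd1 and Sp5, both known Wnt targets, were under the filter too and were not tested. Nkd1 gave 14 UMIs in the rim and 6 in all other cells, at means of 13.8 ± 13.9 and 0.142 ± 0.207 CPM, and Sp5 gave 29 and 26 UMIs, at 17.0 ± 14.8 and 0.690 ± 0.674 CPM. Each was higher in 7 of 9 libraries.

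Ccnd1 and Ctnnbip1 were the members that were lower. Ccnd1, cyclin D1, gave 2 UMIs in 1394205 rim UMIs where the level of the other cells predicts 41.7, which is 4.80% of it (exact 95% Poisson interval 0.581 to 17.3%). Other pericentral cells predict 41.8, so the gap is as wide within the pericentral zone. Its level in other cells varied from 10.5 to 85.1 CPM between libraries. Ctnnbip1, an inhibitor of beta-catenin, gave 4 rim UMIs against 30.9 predicted by all other cells and 4.46 by other pericentral cells. Against other pericentral cells 4 of 14 Wnt genes were higher (Lgr5, Rnf43, Znrf3 and Tbx3) and Ccnd1 was lower. Against the innermost zone 0 were higher and 2 lower, and Lgr5 was at 0.72 (edgeR adjusted p = 0.637).

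Among xenobiotic and steroid P450 genes, 12 of 19 tested were higher than in all other cells, 2 lower, and the median was 0.78. Cyp2c37 (3.03), Cyp2a5 (2.87), Cyp2c38 (2.37), Cyp1a2 (2.26), Cyp2c54 (1.95), Cyp2c50 (1.86), Cyp2e1 (1.75) and Cyp2c29 (1.49) led, and Por, the reductase that feeds electrons to them, was at 0.78 ± 0.12. Cyp2f2 and Cyp2a12 (-1.0 ± 0.13) were lower. The rim stood above the rest of the pericentral zone at 10 of 17 members that are not landmarks, with a median of 0.34, and below it at 2. The landmark Cyp2e1 is given only as a level: 4452, 5428 and 7900 CPM (lowest, median, highest) in the rim, 1669, 3604 and 6555 CPM in other pericentral cells. Against the innermost zone 4 were higher and 0 lower, and with library size alone 12 were higher and 0 lower.

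Glutathione, glucuronide and antioxidant genes were higher at 10 of 22 members and lower at 2 (median 0.31), and with library size alone at 14 and 1. The mu-class transferases Gstm2, Gstm3, Gstm6 (1.72 ± 0.12) and Gstm1 (0.71 ± 0.09) were among them, as was Gstt1 (0.87 ± 0.12). Gstp1 (-0.85 ± 0.15) and Gss (-0.64 ± 0.24) were lower. In bile acid synthesis and transport 8 of 20 were higher and 3 lower, and with library size alone 11 and 2. Cyp7a1, the rate-limiting enzyme of bile acid synthesis, was 161, 204 and 780 CPM in the rim and 36.4, 60.1 and 316 CPM elsewhere (log2 1.58 ± 0.12, higher in 9 of 9). Slco1b2, an uptake carrier of the blood side, was at 1.25 ± 0.10, and Abcb11, the bile salt pump, was lower (-0.62 ± 0.13). Against other pericentral cells Cyp7a1 (0.60 ± 0.11) and Slco1b2 (0.47 ± 0.09) were still higher, among 5 of 20 that were and 2 lower. With DESeq2, 0 of this list were lower than in other pericentral cells. Against the innermost zone 1 was higher and 1 lower.

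Of 17 genes of gluconeogenesis, glycolysis and glycogen, 9 were lower and 0 higher (median -0.57), among them Pck1 (-1.73 ± 0.11) and Fbp1 (-1.26 ± 0.11) of gluconeogenesis. Against other pericentral cells 5 were lower, Pck1 at -1.19 ± 0.10, and against the innermost zone 2. In fatty acid and sterol synthesis 15 of 22 were lower and 0 higher, with a median of -0.61, and 12 were lower than in other pericentral cells with a median of -0.62. Scd1, which puts the double bond into fatty acids, was 1345, 1906 and 3112 CPM in the rim, 3867, 5336 and 8066 CPM in other pericentral cells and 3140.4, 4856 and 7269 CPM in all other cells. The rim range lies under both of the others. Its log2 difference was -1.59 ± 0.10 against all other cells and -1.61 ± 0.09 against other pericentral cells, and it was lower in 9 of 9 libraries in each. Acly (-1.80), Sqle (-1.42), Fasn (-1.09) and Srebf1 (-0.97) were lower than in all other cells. Against the innermost zone 6 of 22 were lower. Elovl3, a fatty acid elongase described below by time, was higher than in all other cells (0.92 ± 0.12, 9 of 9 libraries).

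Fatty acid oxidation and ketogenesis had 6 of 20 members higher and 0 lower, with a median of 0.19. Cyp4a10 (1.94 ± 0.10) and Cyp4a14 (1.44 ± 0.12), which oxidise the far end of fatty acids, were the largest and the only 2 of the list higher than in other pericentral cells. With library size alone 13 of 20 were higher than in all other cells, so the count of this list rests on scaling.

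Secreted plasma proteins were lower at 26 of 32 members and higher at 1, Lect2, itself a pericentral landmark. The median was -0.76. Alb, which encodes albumin, was 8667, 12662 and 15912 CPM in the rim and 18144, 30290 and 39376 CPM in other cells, without overlap (log2 -1.42 ± 0.11). Hpx, which binds haem, was at -1.42, Fga of fibrinogen at -1.08 and Apoa4 at -1.66. Apoa2 (0.17 ± 0.10), Apoe (0.02 ± 0.10) and Rbp4 (0.02 ± 0.10) did not pass. Against other pericentral cells 17 of 31 were lower with a median of -0.35, Alb at -0.65 ± 0.09, and against the innermost zone 7.

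Of 10 iron genes 4 were lower and 0 higher. Hamp, which encodes the iron hormone hepcidin, was 26.6, 135 and 629 CPM in the rim and 197, 441 and 1816 CPM in other cells, with overlap between libraries but lower in 9 of 9 (log2 -1.83 ± 0.13). It and Hamp2 were also lower than in other pericentral cells, at -1.36 ± 0.12 and -2.26 ± 0.20. Of 8 haem genes 3 were higher and 0 lower: Alad (0.94 ± 0.14) and Cpox (1.32 ± 0.12) of haem synthesis, and Blvrb (1.46 ± 0.12) of haem breakdown. The same 3 were higher than in other pericentral cells. Of 13 mitochondrially encoded genes 12 were lower (median -0.53), and 8 with library size alone. Against other pericentral cells it was 9, or 3 with library size alone.

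Of 20 nuclear receptors and transcription factors 4 were higher and 2 lower. Ahr (1.15 ± 0.18) and Nr1i3 (1.09 ± 0.13), both sensors of foreign compounds, and Cebpb (0.36 ± 0.12) were among those higher. Esr1, the oestrogen receptor (-1.17 ± 0.35), and Foxa3 (-0.74 ± 0.18) were lower. With DESeq2, 3 members of this list were higher and 0 lower. Of all genes tested, 5.67% were higher and 9.1% lower. Hnf4a, a broad hepatocyte factor, was -0.21 ± 0.12 and did not pass. Immediate early and stress genes were lower at 6 of 11 and higher at 2, with Egr1, Fos and Junb at -1.43, -1.44 and -1.40 and Hspa1b at 1.37. DESeq2 gave 3 lower and 1 higher there. Of 12 cell cycle genes only Pcna passed the filter (0.41 ± 0.35, not called).

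Rim cells showed little RNA of other liver cells. All 8 central vein endothelium markers, Rspo3, Wnt2 and Wnt9b among them, were at 0 in 1401948 rim UMIs. That allows up to 2.14 CPM, and their level elsewhere, 0.720 to 3.02 CPM, predicts only 2.24 UMIs, so a lower level was not detectable at this depth. All 7 lymphocyte markers in the files were at 0. The endothelium list summed to 0.0 to 26.6 CPM in the rim and 3.60 to 19.8 CPM in other cells, with 6 of 10 markers at 0, among them Stab1, Clec4g and Cdh5. The macrophage list summed to 0.0 to 45.4 CPM against 0.720 to 24.8 CPM, with 6 of 10 at 0, among them Clec4f and the C1q genes. The neutrophil list gave 1 UMI. Stellate cell markers gave 8 UMIs where 18.8 were predicted (2-sided exact sign-flip permutation p = 0.0117, 0.0312 adjusted over the 8 lists), and cholangiocyte markers gave 47 where 93.6 were predicted (adjusted p = 0.0156 by the same exact test), both lower in the rim. Of the 6 cholangiocyte markers, Epcam, Krt19, Krt7 and Cldn7 were at 0 in the rim, so the 47 UMIs were of Sox9 and Tm4sf4 alone. Whether these transcripts came from cholangiocytes or from hepatocytes was not tested. For central vein endothelium the same exact test gave 0.0156 adjusted, which at 0 UMIs says only that every other-cell sum was above 0. Erythroid markers summed to 0.0 to 226 CPM in the rim and 74.2 to 361 CPM elsewhere (exact sign-flip permutation p = 0.900), and for the endothelium, macrophage, lymphocyte and neutrophil lists the p was 0.744, 0.254, 1.0 and 0.500. Of the 5 erythroid markers in the files 3, Hba-a1, Hba-a2 and Hbb-bt, were at 0 in the rim, so the 151 rim UMIs came from the remaining ones. What part RNA of other liver cells has in the differences above was not tested.

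Shares of cells with a UMI of a gene were compared after thinning every cell to 1000 UMIs, with no cell left out. Slc1a2 was found in 64.4 ± 14.7% of rim cells (SD, n = 10 libraries), 4.77 ± 3.81% of other pericentral cells and 1.57 ± 0.989% of all other cells, with 0.183% in the portal zone as background. Unthinned shares were 81.7, 7.57, 2.56 and 0.257%. Oat was found in 96.7 ± 5.99% of rim cells and 41.0 ± 17.5% of other pericentral cells, and Cyp2a5 in 60.2 ± 15.6% and 26.5 ± 16.7% (unthinned 99.9 and 55.8%, and 77.8 and 39.7%), with 3.03% and 1.19% in the portal zone. Rhbg was found in 12.035 ± 6.31% of rim cells and 0.632 ± 0.615% of other pericentral cells (unthinned 21.1 and 1.31%), with 0.110% in the portal zone. Cps1 ran the other way, with 12.4 ± 8.21% of rim cells, 81.4 ± 6.32% of other pericentral cells and 88.3 ± 4.62% of all other cells (unthinned 21.9, 92.2 and 95.9%). Arg1 was found in 9.98 ± 4.44% of rim cells and 45.1 ± 12.4% of other pericentral cells (unthinned 18.2 and 66.3%). For Slc1a2, Oat, Cyp2a5, Cps1 and Arg1 the direction was the same in 10 of 10 libraries in both comparisons (exact sign-flip permutation, p = 0.00276 adjusted over 24 tests).

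Time of day was tested within the rim as a 24 h cosine and sine over the 9 rim sums, which asks which transcripts change with the hour in these cells. The test called 30 of 4547 genes (0.66%), while 309 (6.8%) fell under 0.05 before adjustment. Of the 30, 17 peaked within 3 h of ZT12, 9 within 3 h of ZT0, 4 within 3 h of ZT18 and 0 near ZT6. The 4 near ZT18 are Cyp2a4, Mup13, Rps18-ps3 and Hsp90aa1, and that count rests largely on the 19 cells of ZT18A. Of the lists, 2 of 9 clock genes, 2 of 19 P450 genes (Cyp2a4 and Por), 1 of 15 gluconeogenesis, glycolysis and glycogen genes (Pck1) and 1 of 7 haem genes were called. In fatty acid and sterol synthesis 0 of 20 were called, and 0 of 20 in fatty acid oxidation. Pck1 was 235 ± 147, 488 ± 31.4 and 1364 ± 79.1 CPM (SD) at ZT0, ZT6 and ZT12, and 258 CPM in the single ZT18 library. Its amplitude was 1.19 on the log2 scale with a peak at ZT11.4, and it kept its call in 22 of 22 settings. Samples 6 h apart cannot tell a wave from a shorter pulse.

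Elovl3, which lengthens fatty acids and is a known circadian transcript, was 853 ± 169 CPM (SD, n = 3) at ZT0 and 248.8 ± 30.9 (n = 2) at ZT6. At ZT12 it was 127 ± 17.8 (n = 3), and the single ZT18 library had 484. Its amplitude was 1.49 on the log2 scale with a peak at ZT23.0 (edgeR adjusted p = 1.38e-05). Lpin1, a phosphatidate phosphatase, was 34.5 ± 11.6, 39.6 ± 7.83, 396 ± 99.1 and 32.3 CPM at the same times, all 3 ZT12 libraries standing above every other. The clock output factor Dbp was 3.82 ± 5.15, 62.3 ± 24.3, 125 ± 12.7 and 0.0 CPM, with an amplitude of 3.11 and a peak at ZT9.78, and Tef, of the same family, was 10.9 ± 9.95, 60.4 ± 42.9, 108 ± 14.0 and 0.0 CPM (edgeR adjusted p = 0.0152). Without ZT12B the adjusted p of Tef was 0.0592. Rgs16, Usp2, Pfkfb3, Fkbp5 and Noct peaked between ZT10.6 and ZT14.2, and Tubb2a, a tubulin, at ZT23.7. Pfkfb3, Noct and Fkbp5 lost their call without ZT0C (edgeR adjusted p = 0.185, 0.340 and 0.319) and with DESeq2, and Fkbp5 also without any one of ZT6A, ZT6B, ZT12A, ZT12C and ZT18A, being called in 11 of 21 settings. The amplitudes of Cyp2a4 (4.23), Mup13 (3.18) and Rps18-ps3 (3.18) rest on the lone ZT18 library, where they had 6, 5 and 12 UMIs, and each has near-identical copies in the genome. Cyp2a4 and Mup13 passed the filter only through that library, and Rps18-ps3 lost its call without it (edgeR adjusted p = 0.381). Alas1, which starts haem synthesis, and Por were called with peaks at ZT14.5 and ZT12.2. Without ZT0C neither was (edgeR adjusted p = 0.0854 and 0.0857), nor was Alas1 without ZT12A (0.0664).

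Of 18 clock genes 9 passed the filter and 2, Dbp and Tef, were called. Nr1d2 was 13.6 ± 13.3, 50.9 ± 8.22, 87.6 ± 30.3 and 0.0 CPM from ZT0 to ZT18 (edgeR adjusted p = 0.0562). Arntl, a core activator, was under the filter, at 20.6 ± 15.9 CPM at ZT0 and 1.57 ± 2.73 CPM at ZT12 from 27 UMIs in all. Clock, Cry2, Hlf, Nfil3 and Bhlhe40 passed the filter but were not called. Dbp and Tef rest on 70 and 72 rim UMIs in all, and Nr1d2 on 54. Slc1a2, Oat and Cyp2a5 were tested and none was called.

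**Figure D5:**
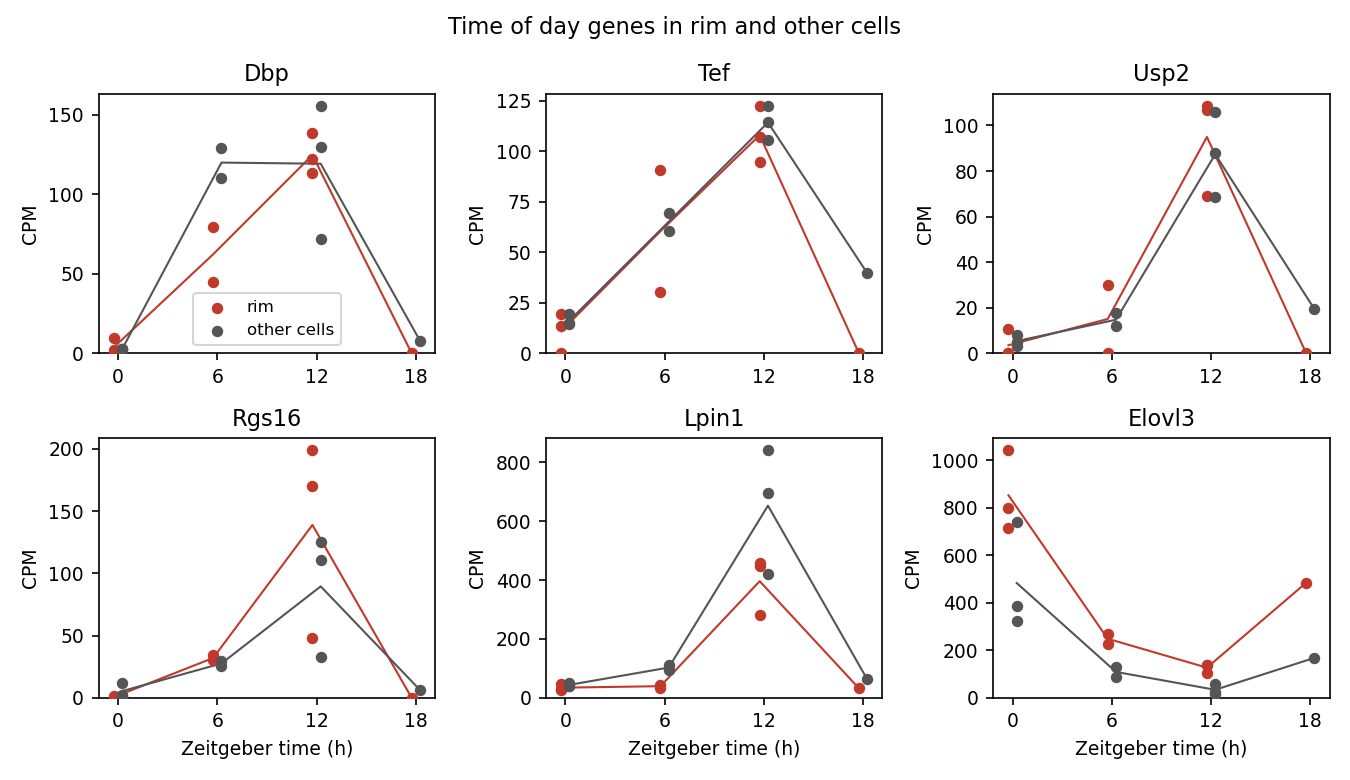
CPM (y axis) of 6 genes by zeitgeber time in hours (x axis) in rim cells (red) and all other cells (grey); points are 9 libraries, shifted sideways by group, and lines join the means. Dbp, Tef, Usp2, Rgs16 and Lpin1 are highest at ZT12 in the rim and Elovl3 at ZT0, and ZT18 is 1 library.

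Whether time acted differently in the rim than in the other cells of the same libraries was tested as a difference of the 2 waves. It called 0 of 4453 genes (0.0%) with edgeR, with 138 (3.1%) at an unadjusted p under 0.05, and DESeq2 also called 0, with 67. The 3 lowest p were for Cyp2a4, Igfbp1 and Baiap2l1, each at an adjusted p of 0.0891. Cyp2a4 was 194 CPM in the rim of the single ZT18 library, from 6 UMIs, and 10.2 CPM in its other cells. It passed the filter of this test only through that rim sum, so its rank is no sign of a difference. Baiap2l1 had 25, 0, 3 and 1 rim UMIs from ZT0 to ZT18, so its rank rests on very low counts. Igfbp1, which binds insulin-like growth factors, was 276 ± 133, 307.5 ± 94.6, 457 ± 193 and 194 CPM in the rim from ZT0 to ZT18, and 359 ± 170, 315.5 ± 13.2, 288 ± 174.5 and 145 CPM in other cells. Dbp was 62.3 ± 24.3 CPM in the rim at ZT6, from only 10 UMIs, and 119.9 ± 13.3 CPM in other cells. At ZT12 it was 125 ± 12.7 and 119 ± 42.8 CPM. Alas1 was 452 CPM in the rim of the single ZT18 library and 155 CPM in its other cells, from 14 rim UMIs. Elovl3 was higher in the rim than in other cells at all 4 times, at 853 against 483 CPM at ZT0 and 127 against 33.9 CPM at ZT12. A p that misses the threshold does not show that the waves are alike.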

How the data were processed

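The deposited tables hold UMI counts per gene and cell, made by the authors with Cell Ranger, per the submitters' processing notes, which name the builds mm10 and hg19 without a role; version, annotation and cell filter are not given in the sources used here. Of 14812 gene entries 14321 matched a GENCODE M21 symbol and 491 did not; 1 duplicated name was left out. Cell columns are numbered, so shared barcodes could not be counted. No doublet caller was run; an alternative drops the deepest 5% of cells.

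Counts were summed per library over rim and comparison cells, with Glul left out. edgeR 4.0.16 (R 4.3.3) was used with its quasi-likelihood test, TMM scaling (factors 0.785 to 1.37), a library term in the comparisons of cells, a mean of 10 CPM (20 CPM for time), at least 10 rim cells per library, and Benjamini-Hochberg adjustment at 0.05. DESeq2 1.42.0 was an alternative. Scripts were tested on simulated data. Genes named are the 10 with the largest difference each way among those called, at 50 CPM or more and alike in direction in all libraries; for time, the 10 largest amplitudes and the clock genes; for the difference of waves, where none was called, the 3 lowest p; and members of the lists. Members and lists were chosen with earlier results of these data known. Intervals and limits cover counting error only. Some members of the lists are counted but not reported here by name.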

Additional observations from a re-analysis of the deposited data

Results flagged for a closer look

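In 3 of 41 sets of 9 library ratios, 1 library lay far from the others (gap over range above 0.493); chance does this in about 1 in 20 sets. The values are log2 ratios of CPM + 10. For Gstm2, rim against other cells, ZT0C was at 2.052 and the nearest library at 2.7. For Serpina7 in the same comparison, ZT6B was at 2.009 and the nearest at 2.308. For Lhpp, rim against other pericentral cells, ZT18A with its 19 rim cells was at 3.301 and the nearest at 2.152.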

How the results depend on the processing

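For the comparisons of cells, the genes with the largest differences were recomputed 1 by 1, with Cyp2a5, Slc13a3, Lgr5, Ccnd1 and Scd1. Against all other cells these genes kept their call in all 477 values. Against other pericentral cells they kept it in 520, with 2 lost, Foxq1 and Lgr5 against the innermost zone. Other list members were followed only as counts per list. Among them Esr1 and Foxa3, lower than in all other cells, lost their call with DESeq2. No value reversed. Leaving out 1 library at a time gave 800 to 944 calls against all other cells, 342 to 415 against other pericentral cells, 20 to 34 for time within the rim and 0 to 4 for the difference of waves (4 without ZT0A, 1 without ZT0B, 3 without ZT12C). Time calls within the rim fell from 30 to 20 without ZT12A, and to 21 without ZT0C or ZT6B; of the 30, 19, 15 and 21 were still called without ZT12A, ZT0C and ZT6B. Against other pericentral cells DESeq2 gave 272 calls and the innermost zone 121. Time within the rim gave 52 calls at a filter of 3 CPM, 73 with 3 or more Glul UMIs, 61 with ZT18B and 51 with the index digit as a block. The difference of waves gave 4 calls with 3 or more Glul UMIs, 1 without the deepest 5% of cells and 1 with ZT18B. The cause of these shifts was not tested. Named time genes kept their side of the threshold in 641 values, lost the call in 106 and gained it in 5, all Nr1d2. With the library letters as a replicate block, time within the rim gave 41 calls, 28 of them among the 30. The main test did not treat the letters as pairing the libraries. Deviations from the mean of each time correlated between ZT0 and ZT12 at 0.026 for A, 0.412 for B and 0.439 for C over 1287 genes. ZT0A with ZT12C was at 0.021, so A did not stand out by letter. ZT0C with ZT12B was at -0.418 and ZT0B with ZT12C at -0.401. As the deviations of a time sum to 0, these B and C values are tied to each other and largely restate 1 contrast. That contrast, C against B, ran the same way at ZT0 and ZT12, which the main test leaves out. Pairs of the same letter with ZT6 were between -0.179 and 0.066. Depth limits the rim most at ZT18, with 19 cells in 1 library, and ZT18 cannot be told apart from the index set.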
